A study of Arabidopsis thaliana with 4 samples.

Results

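Dirigent proteins are small secreted proteins of land plants. They have no oxidising activity of their own and steer the coupling of phenolic radicals, which oxidases such as laccases and peroxidases produce, so that a lignan of 1 handedness forms or lignin is laid down at a set place. In Arabidopsis thaliana, DIR6 (AT4G23690) is known for directing pinoresinol formation, and ESB1 (AT2G28670) for the lignin of the Casparian strip, the wall barrier of the root endodermis. The genes described here are 10 listed loci of this family, chosen by family membership after AT4G11210 had been seen to differ between DEX and mock seedlings in these same arrays. For each locus, the brightest of the probe sets paired with it alone in the array annotation stands for the gene. Of the 10 loci, 7 had such a probe set, and each of the 7 had exactly 1. The annotation used gave 13355 genes a probe set of their own and left 8794 of 22810 probe sets unlisted. AT5G42500 and AT5G42510 shared 1 probe set, whose values are given as those of the pair, and ESB1 had no probe set listed in the annotation used. The family name is background knowledge, since the annotation gives these loci only their codes.

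The values come from 4 one-colour Affymetrix arrays of whole seedlings, 2 from the DEX group and 2 from the mock group, all carrying 35S::Dof3.2-GR. In such plants the viral 35S promoter drives, in nearly all cells, the zinc finger transcription factor Dof3.2 joined to a glucocorticoid receptor domain, which keeps a fusion inactive until dexamethasone (DEX) is supplied. The plants were kept at 22 °C for 4 days on agar (1% sucrose, kanamycin at 50 µg/ml) and for another 4 days in shaken liquid medium before 10 µM DEX or mock treatment for 3 h. The labels name neither the number of independent lines nor whether replicates were separate cultures, so spreads and p-values cover only these arrays and may be technical, and DEX-treated plants without the fusion were not analysed here. Signals are MAS5 intensities on a linear scale, with array medians of 190.6 and 193 for DEX and 193.3 and 192.8 for mock. In the whole table, 80 of 13648 tested probe sets were past the threshold (limma, Benjamini-Hochberg adjusted p under 0.05, two-sided), 40 higher and 40 lower in DEX seedlings. The DEX contrast led to the choice of the family, so the values of its members are a description and carry no test of their own.

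Among the 7 genes with a probe set of their own, 4 had both DEX signals above both mock signals, 3 had overlapping groups, and 0 had both DEX signals below both mock signals. Such separation in the higher direction was seen in 18.2% of all tested probe sets, and separation in either direction in 39.3%. AT4G11210 stood apart in size, AT3G13650, AT2G21100 and AT1G55210 were higher by smaller amounts, and AT1G58170, AT1G22900 and AT1G65870 had changes within the spread of their replicates. A change of at least 1.5-fold was found in 3 of the 7 genes, against 1.91% of all tested probe sets. The counts of the 7 leave out 3 further tested loci of the family, described below. Their groups overlapped, and their log2 changes were 0.03 to 0.07. In the fit of the whole table, 2 of the 7, AT4G11210 and AT3G13650, were past the threshold in the higher direction and 0 in the lower, where 0.293% of all tested probe sets were called higher and 0.586% were called in either direction. AT4G11210, seen to differ before the family was chosen, is among the genes separated higher, changed 1.5-fold or more and past the threshold. Each of these counts thus holds a gene known beforehand. Seedlings were measured whole, so more cells expressing a gene and more RNA per cell cannot be told apart for any of these values.

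**Figure D1:**
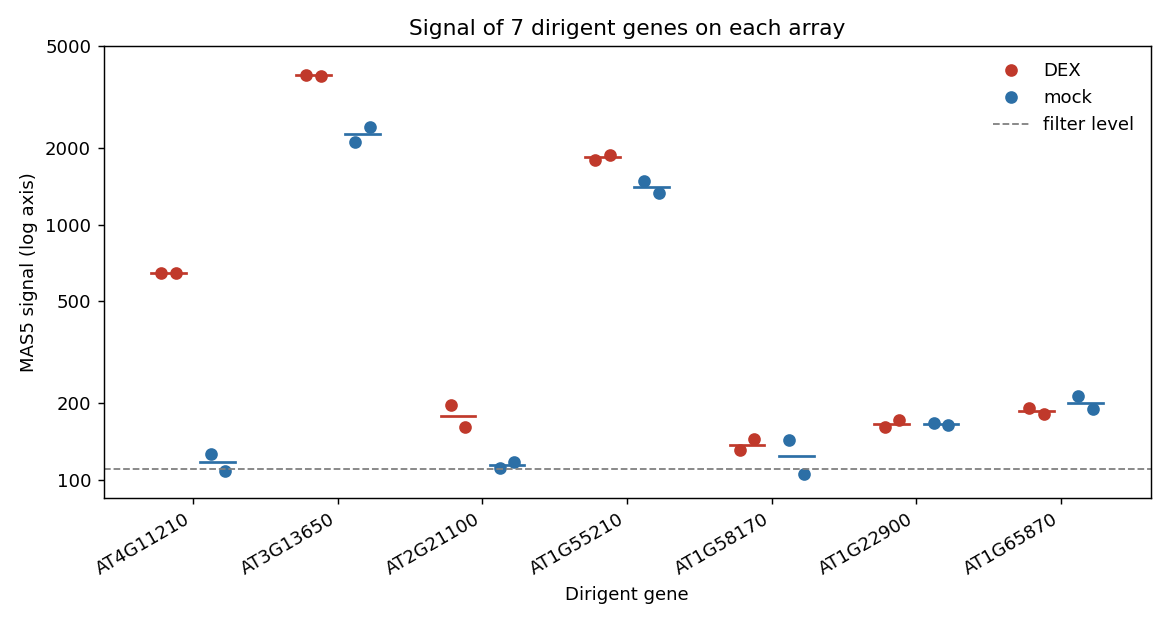
MAS5 signal (log axis) of the 7 dirigent genes with a probe set of their own, with 1 point per array, a bar at the mean of each group, and DEX left of mock. The dashed line is the level of the filter on dim probe sets, a signal of 110.6, and the mock points of AT4G11210 and AT2G21100 lie close to it while their DEX points lie above.

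The largest difference was that of AT4G11210, a dirigent gene on chromosome 4. Its signal was 644 and 647.3 on the DEX arrays, against 125.9 and 108.8 on the mock arrays. The DEX arrays thus gave nearly the same value, and both lay far above the mock arrays. The means were 645.6 ± 2.33 in DEX and 117.4 ± 12.1 in mock seedlings (SD, n = 2 each), which is a 5.51-fold higher signal, or a log2 change of 2.46 ± 0.15 (SE). Over the 4 possible DEX-to-mock pairs the fold ran from 5.11 to 5.95. By absolute log2 change this probe set ranked 5 of 13648. Since the mock signals lay at the level under which probe sets were treated as dim, and no detection call was used, the size of the fold is less certain than its direction.

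AT3G13650, a dirigent gene on chromosome 3, had the second largest change of the 7. The DEX arrays read 3839 and 3822, against 2100 and 2413 on the mock arrays. All of these lie far above the filter level, and the gap between the groups was wider than the gap between the mock arrays. The means were 3830 ± 12.7 in DEX and 2256 ± 221 in mock seedlings (SD, n = 2 each), a 1.7-fold higher signal and a log2 change of 0.77 ± 0.11 (SE). Without DEX replicate 1 or DEX replicate 2 the log2 change was 0.76 and 0.77 but the gene was no longer past the threshold, which was also so with dim probe sets kept and with no variance trend.

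AT2G21100, a dirigent gene on chromosome 2, read 196.4 and 161.1 on the DEX arrays and 111.4 and 117.3 on the mock arrays. The groups did not overlap, though here the DEX arrays differed more from each other than the mock arrays did. Its log2 change was 0.64 ± 0.18 (SE), a 1.56-fold higher signal in DEX seedlings, and it was not past the threshold of the whole table. With DEX replicate 1 left out the change was 0.49, and with DEX replicate 2 left out 0.78. As with AT4G11210, the mock signals were close to the dim range.

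AT1G55210, a dirigent gene on chromosome 1, read 1795 and 1867 on the DEX arrays, against 1475 and 1323 on the mock arrays. The groups separated by a small margin, with pairwise folds of 1.22 to 1.41. Its log2 change was 0.39 ± 0.11 (SE), a 1.31-fold higher signal, not past the threshold with all 4 arrays. Without mock replicate 1 the change was 0.47, and without mock replicate 2 it was 0.31.

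The other 3 genes, all on chromosome 1, showed no separation. AT1G58170 read 130.8 and 144.2 on the DEX arrays and 143 and 105.5 on the mock arrays, and its log2 change of 0.16 ± 0.20 (SE) turned to -0.06 without mock replicate 2. AT1G22900 read 160.9 and 171.3 in DEX and 167.5 and 163.8 in mock seedlings, with a log2 change of 0.00 and a 95% interval of -0.36 to 0.37. AT1G65870 read 190.8 and 180.7 in DEX and 213.1 and 188.9 in mock seedlings, with a log2 change of -0.11 and a 95% interval of -0.47 to 0.25. The interval of AT1G58170 was wider, from -0.29 to 0.62, and holds the change fitted for AT1G55210.

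The probe set shared by AT5G42500 and AT5G42510, neighbours on chromosome 5 with 1 protein-coding gene between them, went the other way. It read 282.4 and 278 on the DEX arrays, against 322.6 and 333.6 on the mock arrays, so that both DEX values lay below both mock values. The difference was small, a log2 change of -0.23 ± 0.14 (SE), and was not past the threshold. Its s_at suffix marks a probe set matching more than 1 transcript, so its signal cannot be divided between these genes.

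**Figure D2:**
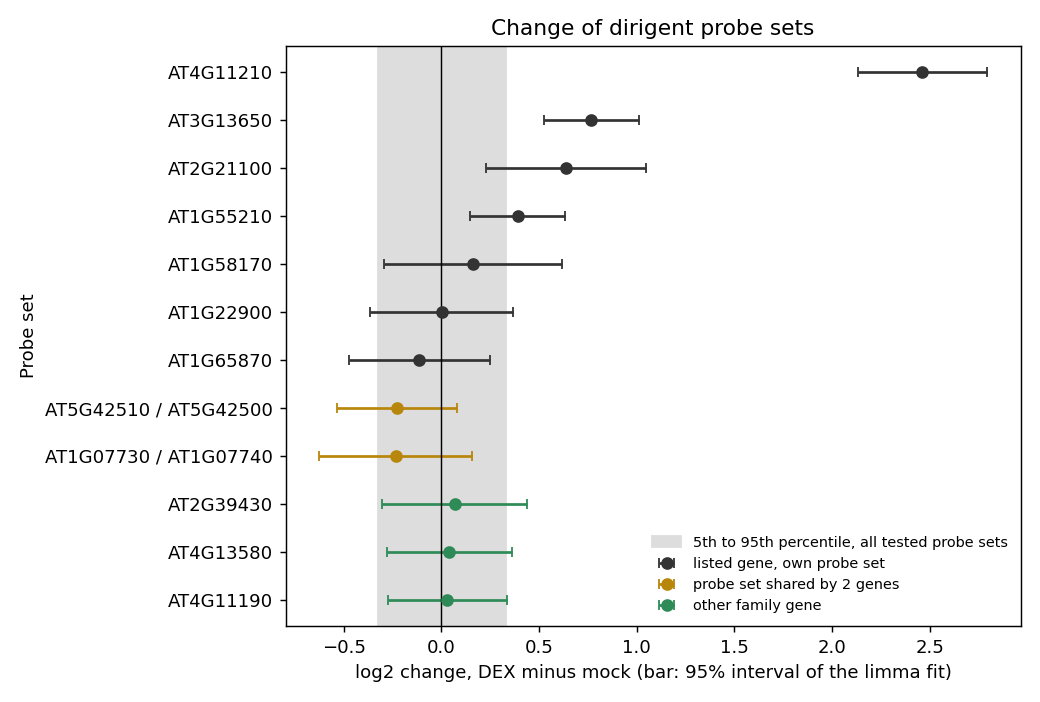
log2 change, DEX minus mock, of dirigent probe sets with the 95% interval of the limma fit. Listed genes with their own probe set stand at the top, then probe sets shared by 2 genes, then other tested genes of the family; the grey band holds the 5th to 95th percentile of all tested probe sets, -0.32 to 0.33. The point of AT4G11210 at 2.46 lies well to the right of every other one.

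The 7 changes were spread over the range from -0.11 to 2.46, with a median of 0.39 for these genes and -0.01 for all tested probe sets. Put in order, AT4G11210, the gene that led to the choice of the family, came first, with a 95% interval of 2.13 to 2.79. The next 3 had overlapping intervals, 0.52 to 1.01 for AT3G13650, 0.23 to 1.05 for AT2G21100 and 0.15 to 0.63 for AT1G55210, so their order is not resolved. Without AT4G11210 the median of the other 6 was 0.28. Over all 10 tested loci of the family, including those outside the list described below, the median was 0.11. No relation between a gene's brightness and its change can be read from 7 genes, and levels of different probe sets are not comparable on this array.

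**Figure D3:**
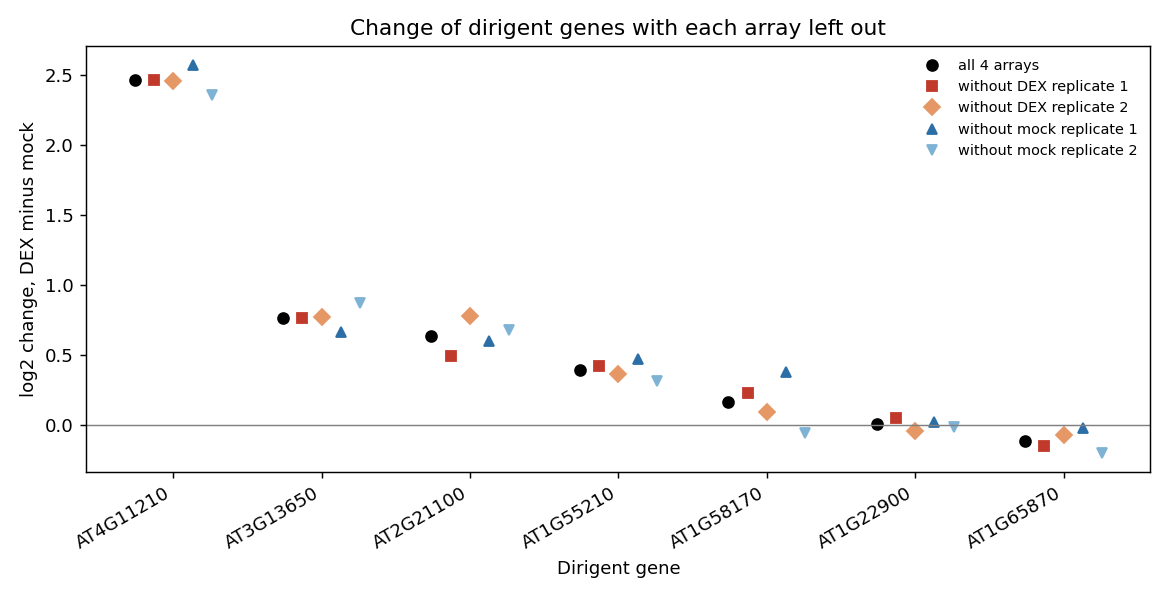
log2 change, DEX minus mock, of each of the 7 genes with all 4 arrays and with each array left out in turn. The values of AT4G11210 stay between 2.36 and 2.57, those of AT3G13650 between 0.67 and 0.87, and AT1G58170 and AT1G22900 cross 0.

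Beyond the listed loci, the dirigent family holds further genes, written down here from general knowledge as 15 loci. Of these, 8 had a probe set of their own and 3 were bright enough to test. AT4G11190 is the next protein-coding gene to AT4G11210 on chromosome 4, with 0 such genes between them. It read 320.6 and 329 on the DEX arrays, against 308 and 327.7 on the mock arrays, a log2 change of 0.03 ± 0.14 (SE), beside 2.46 ± 0.15 for AT4G11210. AT2G39430 and AT4G13580, known like ESB1 from the Casparian strip, were close to 0 as well. AT2G39430 read 222 and 233.2 in DEX and 194.4 and 242 in mock seedlings, and AT4G13580 read 599.5 and 469.9 in DEX and 514.3 and 517.1 in mock seedlings. Their log2 changes were 0.07 ± 0.17 and 0.04 ± 0.14 (SE), and the groups overlapped in all 3 genes. These 3 were not past the threshold in any of the settings that tested them, with a lowest limma adjusted p of 0.639 for AT2G39430, 0.887 for AT4G11190 and 0.936 for AT4G13580.

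The remaining 5 loci lay under the filter level and were not tested. AT3G13660 and AT3G13662 follow AT3G13650 directly on chromosome 3. AT3G13660 read 23.57 and 18.44 in DEX and 15.58 and 58.21 in mock seedlings, and AT3G13662 read 12.86 and 1.34 in DEX and 2.16 and 4.93 in mock seedlings. Both were thus under the filter level on every array and scattered widely between replicates. AT2G21110, separated from AT2G21100 by 1 protein-coding gene, was also dim, with 7.91 and 18.04 in DEX and 29.96 and 1.75 in mock seedlings. AT3G58090 read 106.2 and 78.58 in DEX and 89.12 and 63.72 in mock seedlings, and AT4G38700 read 59.16 and 55.56 in DEX and 53.93 and 65.73 in mock seedlings. In all 5 the groups overlapped. AT1G07730 shared its probe set with AT1G07740, at 129 and 120.3 in DEX and 141.9 and 151.2 in mock seedlings. Both DEX values lay below both mock values, and 39.3% of all tested probe sets were separated in either direction. The log2 change was -0.23 ± 0.18 (SE) and was not past the threshold. DIR5 (AT1G64160) and DIR6, both known from pinoresinol formation, had no probe set listed.

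Dirigent proteins act on radicals of monolignols, so genes that make, oxidise or reduce these compounds, or that build the Casparian strip, were looked up in 6 lists of 74 loci. The annotation gave 15 of them a probe set of their own, and 10 were bright enough to test. None of the 10 was past the threshold with all 4 arrays in limma (0 higher, 0 lower), and 3 had an unadjusted p under 0.05, a level that 9.25% of all tested probe sets reached. Their median log2 change was 0.17, against -0.01 over all tested probe sets, with a range from -0.32 to 0.58.

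Of the peroxidases tied to lignin, 5 were tested and 0 were past the threshold, with values on both sides of 0. This list does not hold AT4G36430, a class III peroxidase gene given further below, which was past the threshold in the higher direction. AT2G22420 read 330.2 and 292.7 on the DEX arrays, against 252.1 and 171.5 on the mock arrays, a log2 change of 0.58 ± 0.19 (SE; limma adjusted p = 0.366). AT2G41480 read 265.8 and 256.5 in DEX and 188 and 192 in mock seedlings, a log2 change of 0.46 ± 0.15 (SE; limma adjusted p = 0.338). AT5G64120 read 890.2 and 855.3 in DEX and 1009 and 1180 in mock seedlings, a log2 change of -0.32 ± 0.12 (SE; limma adjusted p = 0.422). AT5G66390 read 508.5 and 497.4 in DEX and 574.8 and 643.8 in mock seedlings, a log2 change of -0.27 ± 0.12 (SE; limma adjusted p = 0.546). In these genes the groups did not overlap, with AT2G22420 and AT2G41480 higher and AT5G64120 and AT5G66390 lower in DEX seedlings. Separation in either direction was seen in 39.3% of all tested probe sets. Without mock replicate 1, AT2G22420 and AT5G64120 had log2 changes of 0.86 and -0.44. The remaining tested member of the list, AT5G51890, had overlapping groups and a log2 change of 0.18.

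HCT, which transfers hydroxycinnamoyl groups on the way to monolignols, was the 1 tested gene of that pathway and had a log2 change of 0.05 ± 0.11 (SE). Of the reductases that act on lignans and related compounds, AT1G75280 stood at 0.28 ± 0.14 and AT4G39230 at -0.11 ± 0.16 (SE). The Casparian strip list had 2 tested genes, GSO1, a receptor kinase gene of that barrier, at 0.21 ± 0.18 and AT4G34600, which encodes a peptide ligand of that receptor, at 0.16 ± 0.14 (SE). No laccase and no wall regulator of these lists could be tested. A further 5 list genes lay under the filter level and were not tested. Of these, LAC16 read 19.61 and 17.33 in DEX and 7.21 and 4.02 in mock seedlings, PRX52 29.14 and 22.91 in DEX and 14.13 and 5.3 in mock seedlings, and CCR2 86.7 and 95.97 in DEX and 59.95 and 66.61 in mock seedlings. Each of these had both DEX signals above both mock signals. The groups overlapped in AT1G75290, at 25.83 and 17.93 in DEX and 32.4 and 21.05 in mock seedlings, and in AT1G75300, at 26.62 and 34.91 in DEX and 47.51 and 19.21 in mock seedlings. Groups were separated in either direction in 36.6% of all probe sets under the filter level, where signals are noisy, and no fold is given.

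**Figure D4:**
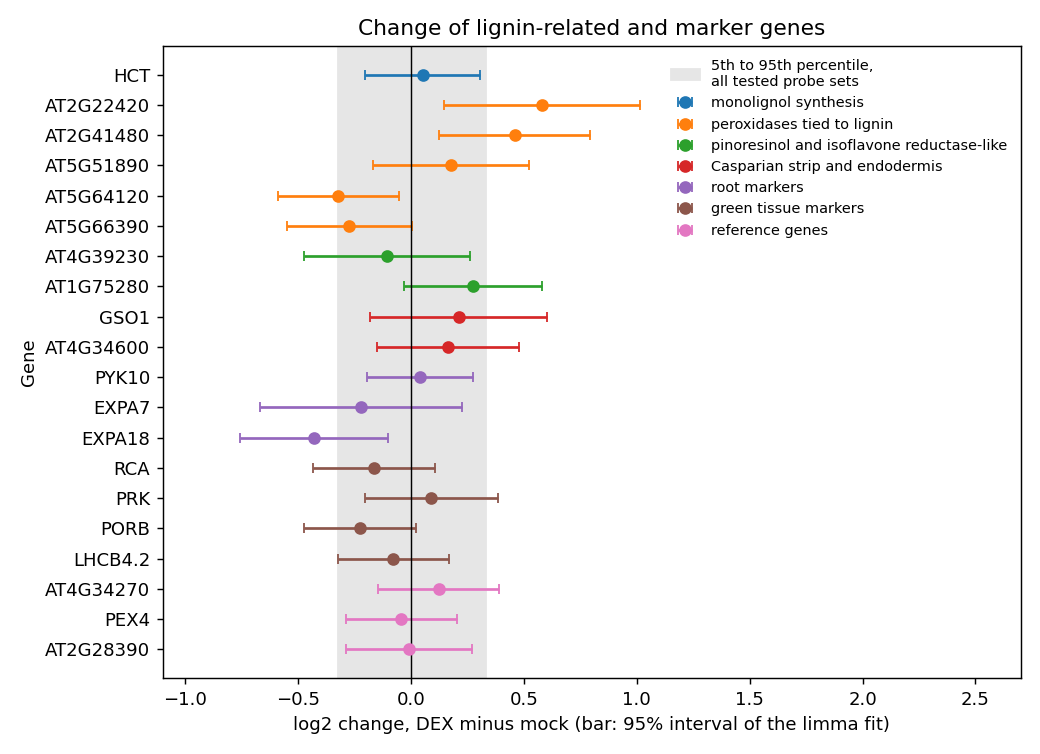
log2 change, DEX minus mock, with the 95% interval of the limma fit, of the tested genes of the lignin-related lists, of root and green tissue markers and of reference genes. The grey band holds the 5th to 95th percentile of all tested probe sets, and the points beyond it are AT2G22420 and AT2G41480 on the right and EXPA18 on the left, with AT5G64120 at its left edge.

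Markers of tissue were read beside these results. PYK10, an abundant root gene, read 13648 and 14584 on the DEX arrays and 13476 and 14012 on the mock arrays, and RCA, a photosynthesis gene, read 21970 and 18696 on the DEX arrays and 21740 and 23728 on the mock arrays, so a root and a leaf marker were bright on every array. Of 5 root markers, 3 were tested and 0 were past the threshold in limma, with 1 at an unadjusted p under 0.05. Their summed signal, mostly PYK10, was 14157 to 15089.5 in DEX and 14060 to 14741 in mock seedlings. The root hair expansin EXPA18 had a log2 change of -0.43 ± 0.15 (SE), EXPA7 one of -0.22 ± 0.20 and PYK10 one of 0.04 ± 0.10. Of 9 green tissue markers, 4 were tested and 0 passed, with 0 at an unadjusted p under 0.05, and their sums were 44809 to 52051 in DEX and 50193 to 52826 in mock seedlings. Their log2 changes were -0.23 ± 0.11 for PORB, a chlorophyll synthesis gene, -0.16 ± 0.12 for RCA, -0.08 ± 0.11 for the antenna gene LHCB4.2 and 0.09 ± 0.13 for PRK, a Calvin cycle gene (SE). The reference genes PEX4, AT4G34270 and AT2G28390 stood at -0.04, 0.12 and -0.01. The endodermis markers CASP1 to CASP5, MYB36, SCR and PER64 had no probe set of their own listed. The part of a shift in tissue makeup in the dirigent values was not tested.

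Among all other single-gene probe sets tested, the one whose 4 centred log2 signals lay nearest to those of AT4G11210 was AT4G36430, a class III peroxidase gene, at a distance of 0.16 log2 units over the 4 arrays. It read 2196 and 2022 on the DEX arrays and 374.2 and 366.3 on the mock arrays. The signal was 5.69-fold higher in DEX seedlings, beside 5.51-fold for AT4G11210, and was past the threshold. Nearness was measured on these same 4 arrays, so a similar fold follows from how this gene was picked. The next were AT4G33380 and AT3G16330, at distances of 0.64 and 0.78, with log2 changes of 1.84 and 1.70.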

How the data were processed

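Total RNA was hybridised as biotin-labelled target to one-colour Affymetrix arrays, per the labels' protocols. The deposited intensities are linear MAS5 signals of the authors, per the submitters' processing notes; the MAS5 version is not given in the sources used here. Each array had a mean signal of 500 after trimming 2% at each end, so these values hold no information on total RNA per cell. Of 22810 probe sets, 64 controls were left out. In the annotation 13513 probe sets have 1 gene, 503 have several, and 8794 are unlisted. Symbols and gene order came from RefSeq (assembly TAIR10.1); the array names no build and coordinates are left out.

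Signals were log2-transformed with no pseudocount, and probe sets with a mean under the 40th percentile (a signal of 110.6) were left out, which kept 13648. The fit used limma 3.58.1 in R 4.3.3, with DEX minus mock as its 1 group term, variances that follow the mean, and Benjamini-Hochberg adjustment over all kept probe sets at 0.05. The prior held 7.74 of 9.74 degrees of freedom, so most of the precision is borrowed across probe sets. The fit was tested on simulated data drawn from its own variance model. Such data cannot speak to the kind of replicates or to noise near the filter level. The number of arrays limits the precision.

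The dirigent genes and all lists were chosen with earlier results of these data known. Named are all 10 listed loci, other family loci with a probe set of their own, up to 3 members of each further list with the lowest p, the 3 probe sets nearest to AT4G11210, and beyond this rule the remaining tested list members and the dim list genes, named after their values were seen. Alternatives were quantile normalization, median centring, no filter or one at the 20th or 60th percentile, a pseudocount of 16, no variance trend, the replicate number as a block, and each array left out.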

Additional observations from a re-analysis of the deposited data

How the results depend on the processing

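AT4G11210 kept its direction in all 11 alternatives that tested it, with log2 changes of 2.31 to 2.57. The filter at the 60th percentile left it out. In the alternatives with all 4 arrays its limma adjusted p was at most 0.0018. All alternatives reuse the arrays that led to the choice of this gene, so they describe its value and do not test it. AT3G13650 kept its direction in all 12 alternatives (0.67 to 0.87) and was past the threshold in 8; limma adjusted p was 0.0658 without the filter, 0.073 without a variance trend, and up to 0.123 without a DEX array. Accordingly 1 dirigent gene was past the threshold without the filter, at the 60th percentile (where 2 of the 7 were tested) and without a variance trend, and 1 to 3 with 1 array left out, 3 being reached without mock replicate 1. AT2G21100, AT1G55210 and AT1G65870 kept their direction throughout, while AT1G58170 and AT1G22900 changed sign in 1 and 2 alternatives at values near 0.

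Over all probe sets, 25 were past the threshold without the filter, 43 at the 60th percentile, 185 with the replicate number as a block, and 25 to 496 with 1 array left out: leaving out DEX replicate 1 gave 27, DEX replicate 2 gave 25, mock replicate 1 gave 496 and mock replicate 2 gave 260, where the spread comes from the group that keeps both arrays. Of the 10 related genes, 0 to 2 were past the threshold with 1 array left out. The replicate numbers are not said to mark a shared batch, and with 2 pairs they were not treated as pairs; the correlation across probe sets of the replicate difference in DEX with that in mock was 0.11. With the block, the same 2 dirigent genes were past the threshold. Averaging several probe sets of a gene was not run, since each gene had 1. With 2 arrays a group, signals near the filter level limit what the folds of AT4G11210 and AT2G21100 can show.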
